A study of Mus musculus with 58 samples.

Results

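RNA-seq libraries of sorted HSCs from old refed mice (OCRRF, n = 2) were set against those of old ad lib mice (OAL, n = 4). The comparison asked what still differed in HSCs after lifelong restriction had been followed by 4 weeks of unrestricted food. These 6 libraries are part of 34 RNA libraries and 58 samples in the series. Genes entered the test when their mean over the 6 libraries was at least 5 CPM (counts scaled by library size), which kept 12471 of 55376 annotated genes (22.5%). The genes nearest the limit were Zscan30 and Txlnb inside it and Nr6a1 outside it, all at 5.00 CPM after rounding.

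All mice were C57BL/6 males without any transgene. The old mice, 24 to 26 months of age, came from the NIA colony and the young ones from The Jackson Laboratory, so age and source cannot be told apart. OAL mice ate freely all their lives. OCRRF mice lived on 40% caloric restriction from 3 to 4 months of age and then ate freely for 4 weeks before the cells were taken. Libraries of restricted old mice that were never refed (OCR, n = 4) and of young mice give the levels set beside them. The young libraries were ad lib (YAL, n = 4), after short restriction (YCR, n = 4) or refed (YCRRF, n = 4). The young mice were 3 to 4 months old when their feeding period began, so their cells were taken later. Young restriction lasted 4 weeks and was milder in its first week than the lifelong 40%. YCRRF mice then ate freely for 4 weeks, so they were older than YCR mice when cells were taken. HSCs were taken as lineage-negative, Sca-1+, c-Kit+, CD34-, Flk2-, CD150+ cells. Whether a library held the cells of 1 mouse or of several is not stated, so p-values measure the spread between these libraries. In bulk libraries, fewer cells of a type and less RNA per cell cannot be told apart.

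HSCs renew themselves and supply every blood lineage, and most of them are quiescent. With age they grow in number, lean towards platelet and myeloid output and take up a set of transcripts that is scarce in young HSCs. Caloric restriction lowers insulin and growth factor signalling and shifts cells towards the use of fat, and refeeding lifts nutrient supply within days.

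The libraries held 23497989 and 29180038 counts in OCRRF HSCs and 30235212 to 33772852 in OAL HSCs, so both OCRRF libraries were shallower than every OAL library. Kit, the receptor the gate is built on, reached 1425 and 1387 CPM in the refed and 1497 to 1916 CPM in the OAL libraries. Cd48, a marker of later progenitors that the gate did not use, stayed under 1 CPM in all 6 libraries. Transcripts of 2 markers that the gate excludes were present in both groups. Cd34 was at 125 and 120 CPM in OCRRF and 118 to 149 CPM in OAL libraries. Flt3, the gene of Flk2, was at 16.0 and 14.9 CPM against 11.4 to 16.9 CPM. Among genes of other cell types, plasma cell transcripts set 2 OAL libraries apart: 10 plasma cell genes together reached 359 CPM in OAL replicate 1 and 176 CPM in OAL replicate 3 against 5.12 to 15.7 CPM in the other 4 libraries. Reads on 1434 olfactory and vomeronasal receptor genes, which HSCs are not known to use, made up 1071 and 1370 CPM in OCRRF and 488 to 695 CPM in OAL HSCs, a ratio of 2.05 (exact permutation test, two-sided p = 0.133, the lowest value that 2 against 4 libraries can reach). Both OCRRF libraries also held counts on more genes (46232 and 46646) than any OAL library (42071 to 43972).

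With edgeR's quasi-likelihood test, 55 genes (0.441% of those tested) differed between OCRRF and OAL HSCs at a fold change over 1.2 and an adjusted p under 0.05. Of these, 39 were higher (0.313%) and 16 lower (0.128%) in OCRRF HSCs. Without adjustment, 880 genes (7.06%) were higher and 679 (5.44%) lower at p below 0.05, and all genes together had a median of -0.000203 on the log2 scale. Both OCRRF libraries lay outside the OAL range for all 55 genes, as they did for 10.7% of all genes on the high side and 11.5% on the low side. Zrsr1 is the 1 gene called with each of the 6 libraries left out in turn. Without OCRRF replicate 1 there were 25 called genes, without OCRRF replicate 2 42, without OAL replicates 1, 2, 3 and 4 27, 22, 45 and 55, and with DESeq2 206. With scaling factors taken from all 31816 genes that pass edgeR's filterByExpr, 76 were higher and 1005 lower, and the median of all genes shifted to -0.144, so changes are given relative to the median gene.

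**Figure D1:**
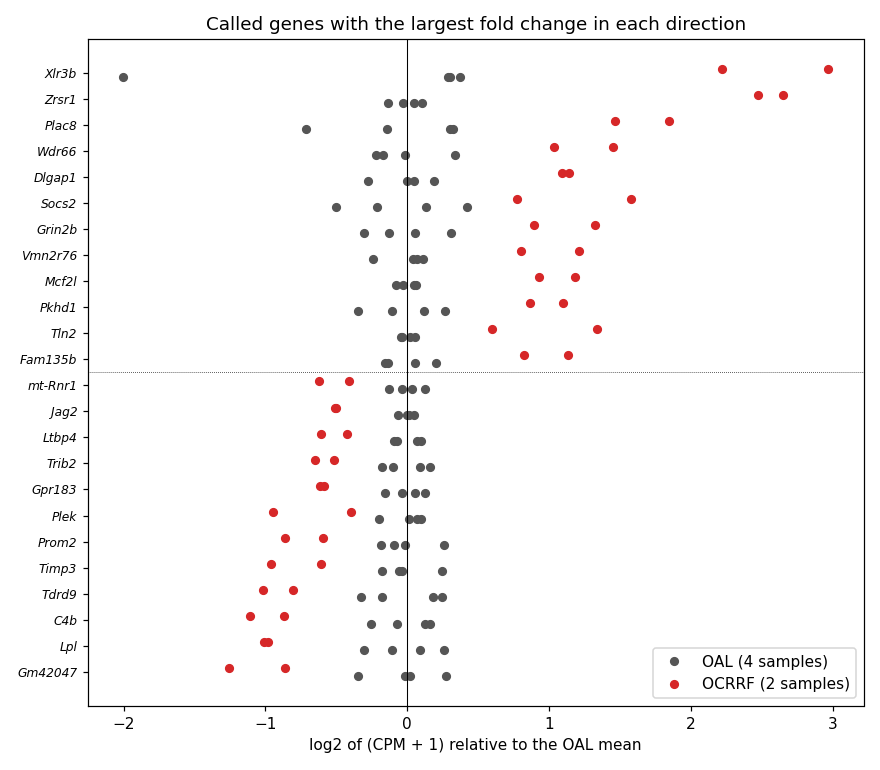
Levels of called genes, the 12 with the highest and the 12 with the lowest log2 fold change, as log2 of CPM + 1 relative to the OAL mean (x axis), with 1 point per library (OAL grey, n = 4, OCRRF red, n = 2). The OCRRF points lie outside the OAL points for every gene, and Xlr3b has 1 OAL library far below the others.

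Several of the genes lower in refed than in OAL HSCs are scarce in young HSCs. Gpr183 (chr14:121952551-121965195, GRCm38), an oxysterol receptor that guides the migration of lymphocytes, stood at 81.1 and 82.6 CPM in the OCRRF libraries and at 130, 122, 112 and 136 CPM in the OAL libraries. The 2 OCRRF values were close to each other and well below the lowest OAL library. On the log2 scale Gpr183 fell by 0.61 (SE 0.08, edgeR adjusted p = 0.0148). The mean was 13.2 ± 9.69 CPM in YAL HSCs (SD, n = 4), and the 4 OCR libraries were lower than both OCRRF libraries, at 36.6, 37.0, 59.4 and 44.5 CPM. Gpr183 was not called without OCRRF replicate 1, where its log2 fold change was -0.60.

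C4b (chr17:34728380-34743882), which encodes the complement component C4, was at 21.5 and 25.6 CPM in OCRRF and at 53.3, 52.0, 39.8 and 45.1 CPM in OAL HSCs. Refed HSCs thus held C4b below every OAL library (log2 fold change -1.01, SE 0.13, edgeR adjusted p = 0.0148). Its YAL mean was 1.53 ± 1.77 CPM (SD, n = 4), and the OCR libraries spanned 11.6 to 26.2 CPM, a range that takes in both OCRRF values. The call was lost without OCRRF replicate 1 (log2 fold change -0.89).

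Lpl (chr8:68880491-68907448), lipoprotein lipase, which frees fatty acids from circulating triglycerides, reached 21.1 and 20.7 CPM in OCRRF HSCs. The OAL libraries held 34.4, 51.3, 45.6 and 39.5 CPM, all of them higher. Lpl thus fell by 1.03 on the log2 scale (SE 0.14, edgeR adjusted p = 0.0164), and Lpl is the 1 gene called when the OCR libraries were fitted together with the others. OCR libraries held 23.4 to 29.7 CPM of Lpl, above both OCRRF libraries, and the YAL mean was 14.4 ± 5.18 CPM (SD, n = 4). Without either OCRRF library Lpl was not called, at log2 fold changes of -1.04 and -1.01.

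Tdrd9 (chr12:111971559-112068854), a helicase known for silencing retrotransposons in the germ line, was at 25.0 and 29.2 CPM in OCRRF and at 61.5, 58.7, 41.1 and 45.7 CPM in OAL HSCs. OCR libraries, at 21.4 to 28.3 CPM, were at the OCRRF level, whereas the YAL mean was 4.56 ± 3.38 CPM (SD, n = 4). The log2 fold change was -0.94 (SE 0.15, edgeR adjusted p = 0.0257), and it was -0.83 and -1.04, not called, without OCRRF replicate 1 and 2.

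Among the other lower genes were Itgb3, Plek and Rgs18, all 3 known from megakaryocytes and platelets. Itgb3 (chr11:104608000-104670476), the integrin chain of the fibrinogen receptor, was at 277 and 256 CPM in OCRRF and at 373, 399, 320 and 351 CPM in OAL HSCs (log2 fold change -0.43, edgeR adjusted p = 0.0493). OCR libraries held less Itgb3 than the OCRRF libraries, at 164 to 239 CPM. Plek (chr11:16971206-17052381), pleckstrin, a protein kinase C substrate of platelets, was at 110 and 161 CPM in OCRRF and 215, 228, 224 and 185 CPM in OAL HSCs. Its log2 fold change was -0.65 (adjusted p = 0.0445) and shrank to -0.40 without OCRRF replicate 1, whose level is the lowest of the 10 old libraries. In contrast to Itgb3, Plek was at its OAL level in OCR libraries, at 184 to 219 CPM. Rgs18, which dampens G protein signalling in platelets, stood at 315 and 375 CPM against 445 to 465 CPM (log2 fold change -0.40, adjusted p = 0.0411).

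Zfpm1, the GATA1 cofactor FOG1 of megakaryocytic and erythroid cells, followed the same order as Plek. It was at 183 and 207 CPM in OCRRF, at 243 to 287 CPM in OAL and at 237 to 275 CPM in OCR HSCs, so that only the refed libraries lay low (log2 fold change -0.44 against OAL, adjusted p = 0.0377). Art4, which carries the Dombrock blood group, was at 207 and 222 CPM in OCRRF, 260 to 297 CPM in OAL and 134 to 162 CPM in OCR HSCs (log2 fold change -0.37, adjusted p = 0.0411). Art4, Itgb3 and Gpr183 thus had OCRRF levels between the OCR and OAL libraries.

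The remaining lower genes include some that act at the cell surface, in the matrix or in signalling, and noncoding RNAs. Timp3, an inhibitor of matrix metalloproteinases, was at 37.9 and 48.7 CPM in OCRRF and at 88.7, 72.7, 71.6 and 66.1 CPM in OAL HSCs (log2 fold change -0.79, adjusted p = 0.0257). Ltbp4, which binds latent TGF-beta (log2 fold change -0.53), Jag2, a Notch ligand (-0.52), Trib2, a pseudokinase (-0.59), and Prom2, a prominin (-0.76), were lower too, with adjusted p of 0.037 to 0.0411. Gm42047, a lincRNA, had the lowest log2 fold change, -1.10 (SE 0.17), at 14.4 and 10.7 CPM against 26.8, 32.8, 21.0 and 27.4 CPM, and OCR libraries spread from 23.5 to 88.4 CPM. mt-Rnr1, the small mitochondrial ribosomal RNA, was at 731 and 632 CPM against 887 to 1057 CPM (log2 fold change -0.51, adjusted p = 0.0257), while the large one, mt-Rnr2, had a log2 fold change of 0.16 (adjusted p = 0.548).

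Of the 16 lower genes, 14 had a higher mean in OAL than in YAL HSCs, as did 47.4% of all genes tested. The 16 were chosen for higher values in these OAL than in the OCRRF libraries, which by itself moves the OAL means above YAL. In a published list of 180 genes that rise in aged HSCs, assembled from other studies, 176 were tested. Of these, edgeR called 7 (3.98%) lower, beside 0.128% of all genes: C4b, Gpr183, Lpl, Tdrd9, Art4, Plek and Itgb3. It called 0 higher, beside 0.313% of all genes. DESeq2, which called 64 lower and 142 higher among all 12471 genes, had 16 of the list lower and 2 higher. At an unadjusted edgeR p below 0.05, 40 of the 176 (22.7%) were lower against 5.44% of all genes, and 10 (5.68%) were higher against 7.06%. With 1 library left out, 26 to 46 were lower and 5 to 21 higher, the 21 without OCRRF replicate 2, and without OCRRF replicate 1 0 were called, without OAL replicate 2 4. The median log2 fold change of the list was -0.068 for OCRRF over OAL and -0.34 for OCR over OAL, 2 comparisons that share the OAL libraries. With the receptor-gene level as a covariate the median for OCRRF over OAL was 0.019. In that fit 17 of the list were higher and 10 lower at an unadjusted p below 0.05, and 0 were called. Among all 12471 genes 1191 passed that threshold there, in either direction. In the list of genes that fall with age, 35 were tested, edgeR called 2 higher (Plac8 and Socs2, 0 without OCRRF replicate 1 and 1 without OAL replicate 2 or 3) and 0 lower, DESeq2 4 higher and 0 lower, and 12 (34.3%) were higher at an unadjusted p below 0.05 (8 to 14 with 1 library left out). Of all genes, edgeR called 0.313% higher, and 7.06% were higher at an unadjusted p below 0.05. The list that falls with age had a median of 0.23, which was 0.10 without OCRRF replicate 1, beside 0.29 for OCR over OAL.

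**Figure D2:**
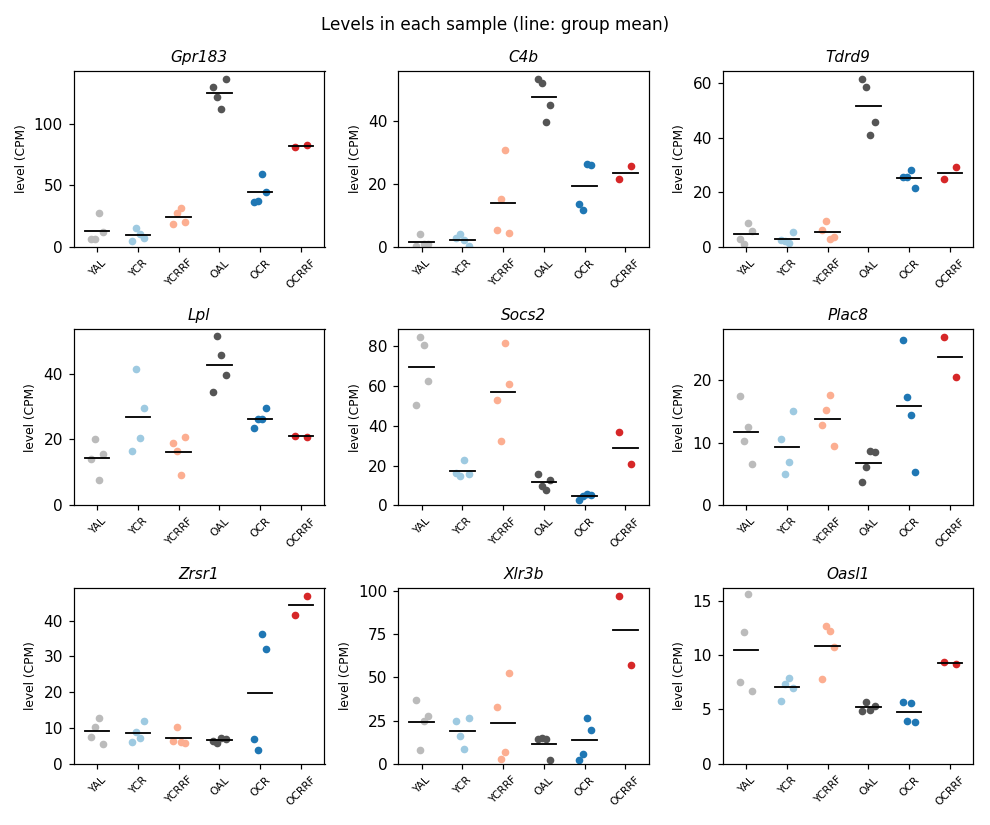
CPM (y axis) of 9 called genes in each library of young (YAL, YCR, YCRRF) and old (OAL, OCR, OCRRF) mice, with a line at the group mean (n = 2 for OCRRF and 4 for each other group). Gpr183, C4b, Tdrd9 and Lpl are higher in OAL than in YAL libraries and lower again in OCRRF libraries, and Zrsr1 is high in both OCRRF libraries and in 2 of 4 OCR libraries.

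Zrsr1 (chr11:22972005-22976496, plus strand), a splicing factor gene without introns, had the smallest p of all genes. It was at 41.5 and 47.0 CPM in OCRRF HSCs and at 6.49, 5.97, 7.20 and 6.92 CPM in OAL HSCs, with little spread in either group. Refed HSCs thus held 6.66-fold more (log2 fold change 2.74, SE 0.12, 95% interval 2.48 to 3.00, edgeR adjusted p = 8.76e-08), and 2.65 to 2.82 with any 1 library left out. The OCR libraries fell into a low pair (7.06 and 3.78 CPM) and a high pair (36.2 and 32.1 CPM), and YAL HSCs averaged 9.05 ± 3.16 CPM (SD, n = 4). Fitted together with OCR libraries, whose spread then counts, the adjusted p rose to 0.133, and it was 0.0813 with the receptor-gene level as a covariate. Zrsr1 lies inside Commd1, on its opposite strand, and overlaps a Commd1 exon. Commd1 had a log2 fold change of 0.39 (adjusted p = 0.181), and whether reads were counted by strand is not given in the sources used here. Zrsr2, the related gene on another chromosome, had a log2 fold change of -0.002 (adjusted p = 0.997).

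Xlr3b (chrX:73192207-73202930), of an X-linked family named for expression in lymphocytes, was at 96.9 and 57.2 CPM in OCRRF and at 14.3, 15.1, 14.4 and 2.11 CPM in OAL HSCs. All OAL libraries lay far below the refed ones and 1 of them lay apart from the other 3. The log2 fold change was 2.75 (SE 0.43, edgeR adjusted p = 0.0257), with an adjusted p of 0.061 in DESeq2. OCR libraries ranged from 2.21 to 26.6 CPM and YAL libraries averaged 24.2 ± 12.0 CPM (SD, n = 4). Its near copies Xlr3a and Xlr3c had at most 63 and 11 counts in the 6 libraries, so reads shared between copies make its level uncertain. Without OCRRF replicate 1 Xlr3b was not called, at a log2 fold change of 2.31.

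Plac8 and Socs2, the called genes of the list that falls with age, were higher than in OAL HSCs but differed in their restricted levels. Plac8 (chr5:100553725-100572245), a cysteine-rich protein of myeloid and lymphoid cells, was at 27.0 and 20.5 CPM in OCRRF and at 3.75, 6.06, 8.74 and 8.58 CPM in OAL HSCs. It was already high in 3 of 4 OCR libraries (26.4, 17.3 and 14.4 CPM, with 5.30 CPM in the fourth), and its YAL mean was 11.7 ± 4.51 CPM (SD, n = 4). The log2 fold change over OAL was 1.81 (SE 0.26, adjusted p = 0.0164), and without OCRRF replicate 1 it was 1.60 and not called.

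Socs2 (chr10:95385362-95417180), a STAT5 target that restrains cytokine and growth hormone receptors, was at 37.0 and 20.7 CPM in OCRRF and 16.0, 9.95, 7.97 and 12.9 CPM in OAL HSCs. OCR HSCs held less Socs2 than any of these, 2.94, 4.57, 5.57 and 5.43 CPM, and YAL HSCs the most, 69.5 ± 16.0 CPM (SD, n = 4). Refed HSCs therefore lay above both old groups, with log2 fold changes of 1.30 over OAL (SE 0.25, adjusted p = 0.0411) and 2.64 over OCR (adjusted p = 5.74e-05). The call against OAL was lost without OCRRF replicate 1 (0.82) and without OAL replicate 2, 3 or 4 (1.23, 1.16 and 1.35), and DESeq2 gave an adjusted p of 0.0633. Socs2 was the 1 gene called by edgeR among 12 STAT5 targets tested, whose median was -0.057, and DESeq2 called 0.

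Aspm and Abca1 were higher in OCRRF than in OAL HSCs and at least as high in OCR HSCs. Aspm, a protein of the mitotic spindle poles, was at 17.3 and 17.6 CPM in OCRRF, at 9.55 to 10.8 CPM in OAL and at 27.6 to 46.0 CPM in OCR HSCs (log2 fold change over OAL 0.81, adjusted p = 0.0257). Abca1, which exports cholesterol from cells, was at 77.2 and 74.2 CPM in OCRRF, at 44.1, 56.9, 41.2 and 32.7 CPM in OAL and at 67.2 to 106 CPM in OCR HSCs (0.79, edgeR adjusted p = 0.0411, DESeq2 adjusted p = 0.0627). The 3 groups thus stood in the same order for both, with the refed libraries in or below the restricted range.

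Most interferon response genes had higher values in refed than in OAL HSCs. Interferon binds its receptor, and the signal that reaches the nucleus switches on genes for antiviral enzymes, guanylate-binding proteins and further IRFs. Of 35 members tested, 31 had a log2 fold change above 0, as did 49.9% of all genes, and 10 (28.6%) were higher at an unadjusted p below 0.05 against 7.06% of all genes, with 0 lower. With 1 library left out 6 to 13 were higher. The median log2 fold change was 0.15, and 0.0061 under the scaling that moved the median of all genes to -0.144. With edgeR 1 member (2.86%) was called, Oasl1, beside 0.313% of all genes called higher. DESeq2 called 5, all higher, beside 142 of all 12471 genes. Oasl1 was at 9.36 and 9.16 CPM in OCRRF and at 4.88, 5.67, 4.94 and 5.28 CPM in OAL HSCs (0.84, SE 0.16, edgeR adjusted p = 0.0443), and with any 1 of the 6 libraries left out it was not called, at 0.80 to 0.88. OCR HSCs held 3.83 to 5.69 CPM of Oasl1 and YAL HSCs 10.5 ± 4.15 CPM (SD, n = 4).

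Oas3, which makes the activator of RNase L, was at 56.4 and 52.4 CPM against 38.0, 45.0, 37.7 and 34.6 CPM (log2 fold change 0.49, adjusted p = 0.0593). Irf7, a transcription factor that amplifies the response, was at 44.7 and 42.2 CPM against 27.3, 35.1, 34.1 and 27.2 CPM (0.49, adjusted p = 0.103). Iigp1, a GTPase that attacks vacuoles of intracellular pathogens, was at 221 and 198 CPM against 111, 174, 165 and 140 CPM (0.51, adjusted p = 0.13). In each the OCRRF libraries lay above the OAL range, without passing the adjusted test. The most abundant members differed less: Ly6e had a log2 fold change of -0.096, Ifitm3 of 0.063 and Ifitm1 of 0.15. Summed over the list, OCRRF libraries held 4855 and 5017 CPM, OAL libraries 4475 to 4799 CPM, OCR libraries 3885 to 3989 CPM and YAL libraries 4567 to 5088 CPM (exact permutation test for OCRRF against OAL, two-sided p = 0.133, the smallest possible).

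The promoters of these genes were searched for GAAANNGAAA, the core of the interferon-stimulated response element, on either strand (TTTCNNTTTC) in the 250 bases before the start in RefSeq (GRCm38.p6). It was found in 978 of 32851 promoter windows (2.98%) and in 12 of 29 windows (41.4%) of the 25 list genes that had one. Among the 10 genes higher at an unadjusted p below 0.05, 7 had a window, and the element was in those of Oas3 (chr5:120777660-120777909, minus strand), Stat2 (chr10:128270248-128270497, plus strand) and Gbp3 (chr3:142559794-142560043, plus strand). They are shown with the match in capitals, since they are the promoters of the genes that were higher and carry the element; 2 matches overlap in Gbp3. Oasl1 has no match in its window.

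Oas3: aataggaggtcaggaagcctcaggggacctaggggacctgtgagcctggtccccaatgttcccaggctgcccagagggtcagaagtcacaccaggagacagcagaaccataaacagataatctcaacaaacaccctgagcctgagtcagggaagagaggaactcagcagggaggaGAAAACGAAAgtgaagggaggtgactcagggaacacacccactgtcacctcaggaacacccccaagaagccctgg
Stat2: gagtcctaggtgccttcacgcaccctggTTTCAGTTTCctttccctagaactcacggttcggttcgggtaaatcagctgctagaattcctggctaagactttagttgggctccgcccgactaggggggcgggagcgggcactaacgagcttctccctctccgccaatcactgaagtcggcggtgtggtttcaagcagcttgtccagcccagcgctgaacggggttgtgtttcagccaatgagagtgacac
Gbp3: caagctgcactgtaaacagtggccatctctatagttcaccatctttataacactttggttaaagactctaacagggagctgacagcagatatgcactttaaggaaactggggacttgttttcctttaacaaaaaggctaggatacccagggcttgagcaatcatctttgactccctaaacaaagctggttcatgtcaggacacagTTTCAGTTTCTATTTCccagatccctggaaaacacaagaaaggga

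Beside Oas3 above, Gbp3, a guanylate-binding protein, had a log2 fold change of 0.35 (adjusted p = 0.133) and was at 81.9 and 80.0 CPM in OCRRF against 55.0 to 70.1 CPM in OAL HSCs, and Stat2 had a log2 fold change of 0.28 (adjusted p = 0.272).

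Many of the other higher genes were long genes with a low level in young libraries. The YAL libraries held counts on 25936 to 28713 genes and 96.2 to 202 CPM of receptor-gene reads, both below every OAL and OCRRF library. The part of this difference between young and old libraries in the low young levels was not tested. Of the 39, 17 span more than 100000 bases, as do 12.0% of all genes tested, and 24 had a mean under 5 CPM in YAL HSCs, as had 4.29% of all genes. For 8 of the 39 the OAL mean was itself below the 5 CPM of the level filter (0.81% of all genes), so that they were tested only because the refed libraries were high: Dlgap1, Fam135b, Grin2b, Mgam, Pkhd1, Tln2, Vmn2r76 and Wdr66. The counts over the 39 rest in part on that filter. Examples are Dlgap1, a scaffold of the postsynaptic density, with 9.09 and 9.46 CPM in OCRRF and 3.90, 3.73, 4.41 and 2.91 CPM in OAL HSCs (log2 fold change 1.31), Grin2b, an NMDA receptor subunit (1.30), and Pkhd1, a protein of renal cilia (1.17). Others were Cacna1e, a calcium channel (1.02), Tenm4, a teneurin of neurons (1.08), and Ttn, the giant protein of the sarcomere, at 37.2 and 46.0 CPM against 20.3, 16.5, 25.2 and 25.4 CPM (0.93). Vmn2r76, 1 of the receptor genes counted above, was at 7.20 and 9.90 CPM against 2.98 to 4.07 CPM (1.21, adjusted p = 0.0257). The 95% interval of the log2 fold change held the receptor-gene log2 ratio of 1.04 for 34 of the 39, lay above it for 3 and below it for 2. This count follows in part from the calling, since genes at low levels are called only at large log2 fold changes and have wide intervals. The same count over other genes was not made.

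The order of the replicates was counted among the higher genes. OCRRF replicate 2, the library with more receptor-gene reads, was above OCRRF replicate 1 for 30 of the 39, and OCR replicate 3, with the most receptor-gene reads of the OCR libraries (1164 CPM), was the highest OCR library for 34. How often all genes tested showed these orders was not counted, so the 2 counts cannot be read as particular to the called genes. Both counts include the 9 repeat loci described below, which share much of their sequence and are not separate observations. With the receptor-gene level as a covariate 0 of the 55 genes were called and 13 of the higher and 2 of the lower genes changed sign. Since both OCRRF libraries exceed every OAL library in these reads, the part of this level and of refeeding cannot be told apart.

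**Figure D3:**
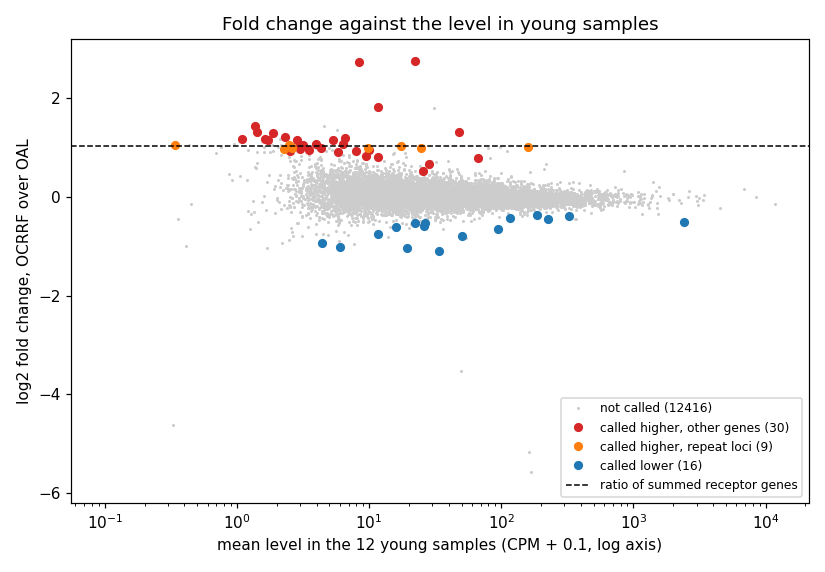
Log2 fold change of OCRRF over OAL (y axis) against the mean CPM + 0.1 of the 12 young libraries (x axis, log scale) for all 12471 genes, with called higher genes in red, the 9 repeat loci in orange, called lower genes in blue, other genes in grey and a dashed line at the receptor-gene log2 ratio. The repeat loci and many of the called higher genes lie near the dashed line at low young levels.

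Among the 39 were 9 loci of tandem repeats on chromosomes 2, 9 and 14: Gm10800, Gm10801, Gm10717, Gm10718, Gm10721, Gm10722, Gm11168, Gm26870 and Gm21738. Their log2 fold changes lay between 0.98 and 1.05, and in DESeq2 7 of the 9 were not called, with adjusted p of 0.0744 to 0.112. Summed they took 16433 and 26083 CPM in OCRRF, 8659 to 14256 CPM in OAL, 7855 to 23903 CPM in OCR and 69.5 to 143 CPM in YAL HSCs. Between 47.2% and 97.0% of the exonic stretches of 25 bases in a locus recur in another of the 9, and reads from those stretches cannot be assigned to 1 locus. Gm10800 took the most, and 234 bases of it (GRCm38 chr2:98666807-98667040, minus strand) are shown because they hold, in capitals, a run of 99 bases that also occurs 2 times in the loci of chromosome 9.

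Gm10800: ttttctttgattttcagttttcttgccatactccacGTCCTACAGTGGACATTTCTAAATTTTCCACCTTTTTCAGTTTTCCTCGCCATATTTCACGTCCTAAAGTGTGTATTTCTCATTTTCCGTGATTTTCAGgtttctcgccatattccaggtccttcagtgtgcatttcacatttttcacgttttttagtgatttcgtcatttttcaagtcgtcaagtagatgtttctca

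The repeat length is 234 bases in Gm10800 and in Gm10717, Gm11168 and Gm26870 on chromosome 9, where bases 1 period apart were identical at 67.2% to 78.4% of positions. Fau-ps2, a processed pseudogene of the ribosomal protein gene Fau, was higher as well (log2 fold change 1.07, adjusted p = 0.0257), while Fau itself had a log2 fold change of 0.075 (adjusted p = 0.776). Reads of a gene and its pseudogene can be split by the counting, and Fau had 3778 to 5625 counts per library against 240 to 562 for Fau-ps2.

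**Figure D4:**
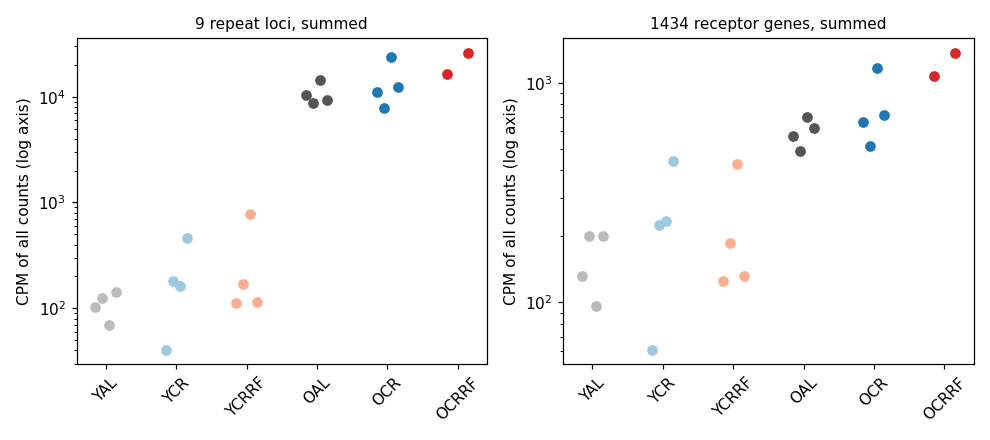
Summed CPM (y axis, log scale) of the 9 repeat loci and of the 1434 olfactory and vomeronasal receptor genes in each young and old library. Both measures are higher in old than in young libraries and highest among the OAL and OCRRF libraries in OCRRF replicate 2.

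The G2/M and S phase lists had medians near the OAL level after refeeding. The median log2 fold change of 52 G2/M genes was 0.083 for OCRRF over OAL and 1.22 for OCR over OAL, and that of 43 S phase genes was -0.072 and 0.89. Under the scaling that shifted all genes, the G2/M median was -0.060, above the shift. No member of either list was called by edgeR, and 1 G2/M gene was called higher by DESeq2. At an unadjusted edgeR p below 0.05, 9 G2/M genes (17.3%) were higher, against 7.06% of all genes, and 0 lower. Without OCRRF replicate 1 that count was 4, and without OCRRF replicate 2 it was 2. Of the S phase genes 5 (11.6%) were lower, against 5.44% of all genes, and 0 higher, and without OCRRF replicate 1 0 were lower. Cdc25c, the phosphatase that starts mitosis, came closest in G2/M. It passed the level filter only through the refed libraries, at 7.23 and 8.28 CPM in OCRRF and at 3.42 to 4.91 CPM in OAL HSCs (0.92, adjusted p = 0.0567). Among S phase genes, Gins2 of the replicative helicase had a log2 fold change of -0.32 (adjusted p = 0.182). Of 10 genes tested from a list of cyclins, their kinases and inhibitors, 8 were below 0, with a median of -0.15. At an unadjusted edgeR p below 0.05, 5 (50%) of them were lower, against 5.44% of all genes, and 0 higher, and edgeR called 0. In that list Ccnd3, a D cyclin, and its kinase Cdk4 both had a log2 fold change of -0.19 (adjusted p = 0.286 and 0.325).

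**Figure D5:**
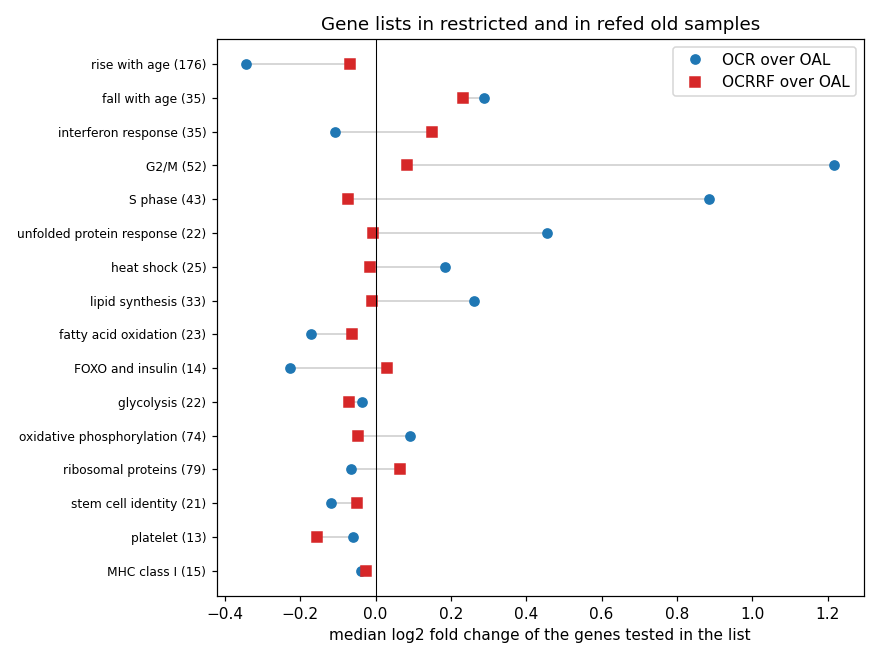
Median log2 fold change (x axis) of 16 gene lists, with the number of genes tested in brackets, for OCR over OAL (blue circles) and OCRRF over OAL (red squares), which share the OAL libraries. The OCRRF medians lie between -0.16 and 0.23, while those of OCR reach 1.22 for G2/M genes and -0.34 for genes that rise with age.

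Metabolic and stress lists had medians near 0 after refeeding, with 0 members called by edgeR and 1, a heat shock gene, by DESeq2. The median was -0.0089 for 33 genes of lipid synthesis (0.26 for OCR over OAL), -0.062 for 23 genes of fatty acid oxidation (-0.17), -0.0074 for 22 genes of the unfolded protein response (0.46), -0.015 for 25 heat shock genes (0.18) and 0.030 for 14 FOXO and insulin genes (-0.23). At an unadjusted p below 0.05, 3 or fewer members of each of these 5 lists differed. For 74 nuclear genes of oxidative phosphorylation the median was -0.047, with 4 lower at that threshold, and for 79 ribosomal protein genes it was 0.065 (-0.077 under the scaling that shifted all genes), with 0 in either direction. Of 20 antioxidant genes 5 (25%) were lower at that threshold, against 5.44% of all genes, and 0 higher, with a median of -0.061. For the antioxidant list DESeq2 calls were not counted. Mt1, a metallothionein that binds zinc and copper, was at 101 and 106 CPM in OCRRF against 121 to 158 CPM in OAL HSCs (-0.48, adjusted p = 0.0519), and OCR HSCs averaged 69.8 CPM.

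With edgeR, stem cell genes gave no call and platelet genes 2. Of 21 stem cell genes 0 were called by edgeR and 1 lower by DESeq2. At an unadjusted edgeR p below 0.05, 2 were higher and 6 lower, against 7.06% and 5.44% of all genes, and without OCRRF replicate 1 there was 1 in each direction, without OAL replicate 2 3 lower. Under the scaling that shifted all genes, 8 were called lower. Their summed level was 7540 and 7698 CPM in OCRRF against 8146 to 8748 CPM in OAL HSCs (exact permutation test, two-sided p = 0.133, the smallest possible). Slamf1, which encodes CD150, was at 127 and 123 CPM against 96.4 to 111 CPM (0.27, adjusted p = 0.134), and Hlf, a transcription factor of quiescent HSCs, at 526 and 588 CPM against 620 to 687 CPM (-0.25, adjusted p = 0.181). Of 13 platelet genes, edgeR called 2 lower (Plek and Itgb3), beside 0.128% of all genes, and 0 higher. At an unadjusted edgeR p below 0.05, 2 (15.4%) were higher and 5 (38.5%) lower, and 4 of the 13 had a log2 fold change above 0. F2r, a thrombin receptor, lay above every OAL library, at 181 and 167 against 133 to 150 CPM of all counts. DESeq2 called 2 lower and 1 higher, and edgeR called 0 without OCRRF replicate 1 and without OAL replicate 1 or 2 and 1 lower without each of the other libraries. Vwf, the platelet adhesion protein that rises with age, was at 831 and 693 CPM against 544 to 761 CPM (0.28, adjusted p = 0.369), so the ranges overlapped.

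Markers of other lineages differed in part. Erythroid genes summed to 1216 and 1442 CPM in OCRRF against 1573 to 1925 CPM in OAL HSCs, most of it Car2, a carbonic anhydrase (-0.35, adjusted p = 0.165). Mast cell and basophil genes summed to 7.57 and 9.23 CPM against 5.83 to 6.66 CPM, and B cell genes to 62.2 and 65.7 CPM against 45.6 to 54.1 CPM, without overlap. Of 12 B cell genes only 1 passed the level filter, Cd79b (0.12, edgeR adjusted p = 0.638), and of 7 mast cell and basophil genes 0 passed. The others lay at low levels, and the part of the background seen in receptor-gene reads in these sums was not tested. The sums of myeloid genes, at 849 and 853 CPM against 694 to 863 CPM, overlapped. So did those of T and NK cell genes, at 60.1 and 82.9 CPM against 64.2 to 75.1 CPM. Most of the myeloid sum was Lyz2 and Prtn3, with log2 fold changes of 0.098 and -0.031. Of 8 myeloid genes tested, 7 were above 0, against 49.9% of all genes, with a median of 0.77. At an unadjusted edgeR p below 0.05, 2 (25%) were higher, against 7.06% of all genes, and 0 lower, and edgeR called 0. The part of these lineage markers in the results above was not tested.

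The 19 genes that the study singles out for restriction had been chosen on these samples, so their counts are not independent evidence of direction. None of the 19 was called by edgeR or DESeq2 in OCRRF against OAL HSCs. In edgeR 0 were higher and 3 lower at an unadjusted p below 0.05 (0 lower without OCRRF replicate 1 and 1 without OAL replicate 2), against 7.06% and 5.44% of all genes, and without OAL replicate 4 1 was called lower. Mki67, the proliferation marker, had a log2 fold change of 0.21 against 1.82 for OCR over OAL, Cdk1, the mitotic kinase, 0.16 against 1.46, and Mcm5 of the replicative helicase -0.17 against 1.16. Kdr, a VEGF receptor, was at 0.078 against -1.11, Clu, a secreted chaperone, at 0.020 against -0.93, and Cpt1a, which takes fatty acids into mitochondria, at -0.082 against -0.70. Bmpr1a, a BMP receptor, had the lowest value of the 19, -0.50 (adjusted p = 0.244) against -0.73.

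For the called genes, values of OCR over OAL stand beside those of OCRRF over OAL. The OAL libraries are shared and the genes were chosen on them, which by itself moves the OCR over OAL values the same way. The median log2 fold change of OCR over OAL was 0.36 for the 39 higher genes and -0.76 for the 16 lower genes. For OCRRF over OCR the medians were 0.66 and 0.036. Plek and Zfpm1 were lower against OCR too (log2 fold changes -0.57 and -0.41, adjusted p = 0.0088 and 0.00618), while Gpr183 and Art4 were higher (0.88 and 0.52, adjusted p = 0.00134 and 0.000579).

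Young HSCs gave a comparison without shared libraries. Between YCRRF and YAL HSCs 0 of 12164 genes (0%) were called by edgeR, 3 by DESeq2, and at an unadjusted p below 0.05 265 were higher (2.18%) and 257 lower (2.11%). Of the genes called in old HSCs, 18 of the 39 higher and 15 of the 16 lower genes passed the level filter in young HSCs. Among those 18, 13 were above 0 (53.1% of all genes were), with a median of 0.35 beside 0.0165 for all genes. They included 4 repeat loci. Among the 15, 5 were below 0 (46.9%), with a median of 0.053. Gpr183 had a young log2 fold change of 0.89, Socs2 of -0.29, Plac8 of 0.24 and Oasl1 of 0.043. The library YCRRF replicate 3 stood apart from the rest, with 80820 CPM on ribosomal protein genes against 31106 to 39499 CPM in the other 3. It also held 779 CPM on the 9 repeat loci against 112 to 171 CPM and 427 CPM on receptor genes against 125 to 186 CPM. Without it 11 of 16 higher genes were above 0 and their median was 0.14.

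The refed against ad lib difference of old mice was compared with that of young mice for 12320 genes, of which 1 (0.00812%) was called and 404 (3.28%) had an unadjusted p below 0.05. That gene was Zrsr1, with a difference of 3.08 (SE 0.42, edgeR adjusted p = 0.0319). The contrast does not set refed against restricted mice, between which Zrsr1 had a log2 fold change of 1.16 in old HSCs (adjusted p = 0.193). In young mice its level was 6.25, 10.3, 6.15 and 5.71 CPM in YCRRF and 7.55, 10.3, 12.8 and 5.56 CPM in YAL HSCs, which overlapped. The call was lost when any 1 OCRRF or OAL library was left out, with adjusted p of 0.116 to 0.512, while the difference stayed between 2.98 and 3.16. Among the young libraries it was lost without YCRRF replicate 1 or 4 (0.113 and 0.0987) and without YAL replicate 1, 2 or 3 (0.0591, 0.105 and 0.0642).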

How the data were processed

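Reads trimmed with trim galore and cutadapt were aligned by the authors to mm10 with STAR and assigned to GENCODE M22 genes by featureCounts, and raw counts per gene symbol were deposited for each library. Coordinates and lengths were taken from GENCODE M21 (GRCm38). Strand and multi-mapping in the counting are not given in the sources used here, and the paper and the labels name different kits. The tests were run with edgeR 4.0.16 in R 4.3.3 (TMM over the genes kept, glmQLFit, glmQLFTest, Benjamini-Hochberg), on 2 OCRRF and 4 OAL libraries, with a fold change above 1.2 and an adjusted p below 0.05. Levels are TMM-normalized CPM over 22 libraries, and sums over lists are CPM of all counts. Columns of no mapped sample numbered 0. Depth ran from 23497989 to 33772852 counts in the 6 libraries, where deeper libraries give less counting error. All libraries of 1 group differed by more than sampling noise. The test was checked on simulated counts. SEs are the absolute log2 fold change over the square root of F. Single values were compared in scipy 1.17.1 with exact permutation tests.

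Alternatives were DESeq2 1.42.0, other size factors, other filters on low counts, a replicate block, 1 fit with the OCR libraries, a covariate of receptor-gene reads and each library left out. The members and gene lists were chosen with earlier results of these data known. Genes named were 12 called genes per direction by size of fold change, called genes in a list, genes the study names and abundant members of lists. Chosen after their values were seen were Oas3, Irf7, Iigp1, Gbp3, Stat2, Cdc25c, Gins2, Ccnd3, Cdk4, Mt1, Slamf1, Hlf, Rgs18, Zfpm1, Aspm, Abca1, Tenm4, Cacna1e, Ttn, Fau-ps2 and the repeat loci.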

Additional observations from a re-analysis of the deposited data

Results flagged for a closer look

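Zrsr1 was the 1 gene called by edgeR when the refed against ad lib difference of old mice was tested against that of young mice. The value was 3.08 on the log2 scale (edgeR adjusted p = 0.0319). This call was lost when any 1 OCRRF or OAL library was left out. Genes not called were not shown to change alike in old and young mice, whose restriction also differed in length.

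Among the called genes, 4 had 1 library far from the other 3 of its group. Xlr3b was at 2.11 CPM in OAL replicate 4 and 14.3 to 15.1 CPM in the other OAL libraries. Cecr2 was at 5.99 CPM in 1 OAL library, against 4.70 to 4.88 CPM. In OCR replicate 3, which also held the most receptor-gene reads of its group, Tln2 was at 10.4 CPM against 4.51 to 4.85 CPM and Cacna1e at 8.58 CPM against 4.51 to 4.75 CPM. Chance alone puts about 1 in 20 groups past this limit, and every called gene was checked in both the OAL and the OCR group.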

How the results depend on the processing

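The number of called genes moved with the filter on low counts and the scaling. Against 55 (39 higher, 16 lower), there were 206 (142, 64) with DESeq2, 1081 (76, 1005) with TMM factors from all genes of the filterByExpr filter, which moved the median of all genes to -0.144, 1316 (528, 788) with that filter itself, 454 (317, 137) at a mean of at least 1 CPM, 18 (11, 7) at 10 CPM, 2684 (1199, 1485) without a filter and 1197 (782, 415) with at least 10 counts in every library. There were 1 (0, 1) in 1 fit with the OCR libraries, 2 (1, 1) with receptor genes as a covariate and 13 (8, 5) among genes with at least 5 CPM also in YAL, a filter added after the data were seen. DESeq2's size factors gave 54. Leaving out 1 library gave 22 to 55 called genes, 14 to 38 higher and 2 to 17 lower. Of the 55 genes, 45 were also called by DESeq2. The cause of these shifts was not tested. Relative to the median gene the lists described kept their direction under both other scalings. The myeloid, cyclin and antioxidant lists were not run under them. All 55 kept their direction outside the covariate fit, wherever they were tested.

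With the covariate, these log2 fold changes reversed: Ttn -0.25, Gm10801 -0.61, Gm10800 -0.51, Gm37985 -0.062, Gm42047 0.10, Gm26870 -0.53, Gm10722 -0.50, Gm11168 -0.60, Gm10721 -0.0051, Gm10718 -0.51, Gm10717 -0.70, Fau-ps2 -0.095, Itgb3 0.12, Dock4 -0.10 and Gm21738 -0.45. The median of the lower genes for OCRRF over OCR turned from 0.036 to -0.0753 with TMM factors from all genes of the filterByExpr filter.

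Replicates share only a number: deviations of same-numbered OCRRF and OAL libraries correlated at 0.068 and -0.011. With the number as a replicate block, 8 genes were called (3 higher, 5 lower), and the comparison of refed over ad lib between old and young mice was called for 0 genes. That difference was called for 3 genes with DESeq2, 0 with the filterByExpr filter and 0 to 4 with 1 library left out. In young HSCs 29 of the higher genes were above 0 with the filterByExpr filter and 11 to 14 with 1 library left out. There, 5 to 9 of the lower genes were below 0.

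With 2 OCRRF libraries, a single exact test cannot pass 0.05, and leaving out 1 of them assumes that the other varies like the OAL libraries. Counts of called genes therefore rest on the pooled spread.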
